A study of Aspergillus nidulans with 7 samples.

Results

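The 48 h conidiophore library and the 0 h submerged mycelium library are the ends of a course of 7 mRNA sequencing libraries of Aspergillus nidulans, a filamentous fungus. They were chosen by their time labels, as 2 of the 7 libraries, with 1 library at each time. Both came from FGSC A4, a wild-type laboratory strain with no engineered allele and no added drug. For 48 h, mycelium had been filtered onto paper discs and kept moist over minimal medium, in air and under constant fluorescent light without airflow, until conidiophores with chains of spores stood on it. For 0 h, mycelium had grown for 20 h at room temperature in minimal medium stirred by bubbled air, and its discs were frozen at once. Age, air, light, stirring and development all changed between the 2 libraries and cannot be told apart. Duplicate discs were collected at each time, and the sources used here do not say whether they were pooled. The 48 h culture still contains the hyphae that carry the conidiophores, so fewer cells of a type and less RNA per cell cannot be told apart in these bulk values.

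In this fungus a hypha that reaches air can raise a stalk with a swollen vesicle, on which layers of sterigmata (metulae and phialides) bud off chains of green conidia. The transcription factors brlA, abaA and wetA act one after another in this programme, and the spores receive a coat of pigment and of hydrophobins, small proteins that make the surface shed water. Submerged hyphae instead extend at their tips and rarely sporulate while well fed.

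Totals were 9018102 counts at 48 h and 6954153 counts at 0 h, and 10185 genes at 48 h and 9394 genes at 0 h had at least 1 count, of 10639 in the table. Levels below are in CPM, counts per 1000000 counts of a library after its total is scaled by a TMM factor, which takes the bulk of genes as the zero of each comparison. On this scale 1 count was 0.0795 CPM at 48 h against 0.313 CPM at 0 h, so a 0 h level rested on fewer counts. With 1 library per time no test of the difference exists. Genes were called by size alone, when CPM plus 0.5 differed 4-fold or more and the higher of the 2 levels reached 10 CPM. Intervals are exact 95% limits that cover counting error only.

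The label of the 48 h library was checked against 8 conidiophore and spore genes. Their summed level was 9208 CPM at 48 h, with at least 10 counts for 8 of 8, and 108 CPM at 0 h, where 5 of 8 reached 10 counts and 2, rodA and dewA, had none. The sums rest largely on single genes, with 7561 CPM from rodA at 48 h and 54.5 CPM from yA at 0 h. The smallest differences among the 8 were 4.69-fold for abaA, 4.87-fold for wetA and 5.36-fold for yA. A pair of loci entered as markers of Hülle cells, the thick-walled nurse cells of the sexual cycle, summed to 105 CPM at 48 h against 30.1 CPM at 0 h. Of these 2, AN7388 gave 101 CPM at 48 h against 29.8 CPM at 0 h, and AN7349 gave 3.74 CPM at 48 h against 0.313 CPM at 0 h. The part of such cells in the results was not tested.

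The makeup of the 2 transcriptomes differed first in how few genes held the counts. The most abundant gene held 1.12% of all counts at 48 h and 2.06% at 0 h, and the 10 most abundant held 6.32% at 48 h and 15.4% at 0 h. For the leading 100 the shares were 20.8% at 48 h and 45.3% at 0 h. It took 743 genes to reach 50% of the counts at 48 h, against 133 genes at 0 h. Levels of at least 1000 CPM were reached by 57 genes at 48 h and 358 genes at 0 h, and levels of at least 10000 CPM by 0 genes at 48 h and 25 genes at 0 h. These 2 cutoffs are on the TMM scale, where the same level is a 3.04-fold larger share of counts at 48 h than at 0 h. AN7217, at 8062 CPM, held 1.12% of counts at 48 h, while AN7170, at 20712 CPM, held 0.951% at 0 h. By the share of the leading 100 genes the 5 libraries between the ends lay between them. These shares were 32.1, 27.8, 28.4, 23.9 and 23.1% of counts at 6, 12, 18, 24 and 30 h, each for the library's own leading 100. When each count was divided by gene length, the gap at the very top nearly closed: the leading 10 genes held 11.6% at 48 h and 13.4% at 0 h, and the leading gene 2.21% at 48 h and 2.09% at 0 h. In the libraries between, the leading 10 held 9.17, 7.40, 8.29, 6.38 and 8.58% per length at 6, 12, 18, 24 and 30 h, below both ends. The leading 100 stayed apart per length, at 29.7% at 48 h and 46.8% at 0 h.

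**Figure D1:**
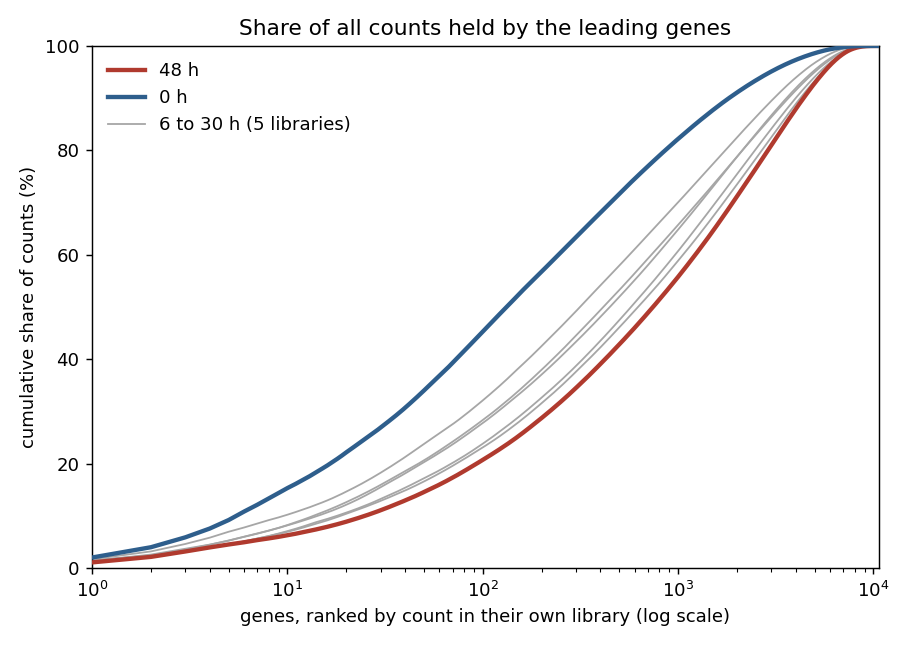
Cumulative share of all counts (%, vertical axis) against genes ranked by count in their own library (log scale, horizontal axis), for the 48 h library, the 0 h library and the 5 libraries between. The 0 h curve reaches 45.3% at 100 genes and the 48 h curve 20.8%, with the other libraries between them.

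The leading genes were largely exchanged. Of the 10 genes with the most counts at each end 2 were shared, AN2582 and AN4859, and of the leading 100 genes 36 were shared. The 0 h leading 100 held 11.4% of counts at 48 h and 45.3% at 0 h, and 91 of them were at least 4-fold lower at 48 h. The 48 h leading 100 held 20.8% of counts at 48 h and 26.5% at 0 h. Of these, 14 were called higher at 48 h and 28 lower, and their median rank at 0 h was 255, so most of the leaders at 48 h were already abundant at 0 h.

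At 48 h the list was led by AN7217, a gene with no symbol, which held 1.12% of counts at 48 h and 0.326% at 0 h. Its TMM level was similar at both ends, with 8062 CPM at 48 h against 7110.3 CPM at 0 h. Between the ends this level was not steady. The libraries of 6, 12, 18, 24 and 30 h gave 1503, 1068, 7117, 5139 and 10471 CPM, in that order. Next came rodA (AN8803, contig 158, 210847 to 211432), the hydrophobin of the rodlet layer on conidia, with 95102 counts or 1.05% at 48 h and 0 counts at 0 h. Per length it was the most abundant transcript at 48 h. The third leader, AN5558, has no symbol in the reference table and was entered on a gene list as prtA, an alkaline protease, and it held 1.04% of counts at 48 h and 0.00384% at 0 h. AN3983, without a symbol, held 0.562% at 48 h and 0.000877% at 0 h. By contrast, 3 further leaders were called lower at 48 h while still ranking in its top 10: AN2582, AN4859 and gel1 (AN7657), whose symbol belongs to a glucanosyltransferase that remodels wall glucan in Aspergillus fumigatus. For gel1 the level was 2194 CPM at 48 h against 14044 CPM at 0 h, 6.40 times lower (6.30 to 6.50).

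At 0 h the list was led by AN4888, entered on a gene list as pdcA, a pyruvate decarboxylase of ethanol fermentation. It held 0.126% of counts at 48 h and 2.06% at 0 h. gpdA (AN8041, contig 136, 84034 to 85437), the glycolytic glyceraldehyde-3-phosphate dehydrogenase, held 0.250% at 48 h and 1.90% at 0 h and was the most abundant transcript per length at 0 h. hsp70 (AN5129), a heat shock chaperone, held 0.226% at 48 h and 1.62% at 0 h, and AN3223, entered as pfkA, the phosphofructokinase of glycolysis, held 0.0430% at 48 h and 1.07% at 0 h. The other 6 leaders at 0 h, AN4859, AN2582, AN5860, AN0858, AN4438 and AN7170, carry no symbol. All 10 were at least 4-fold lower at 48 h, by 12.4 times (12.3 to 12.6) for AN2582 up to 75.3 times (72.9 to 77.8) for AN3223.

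**Figure D2:**
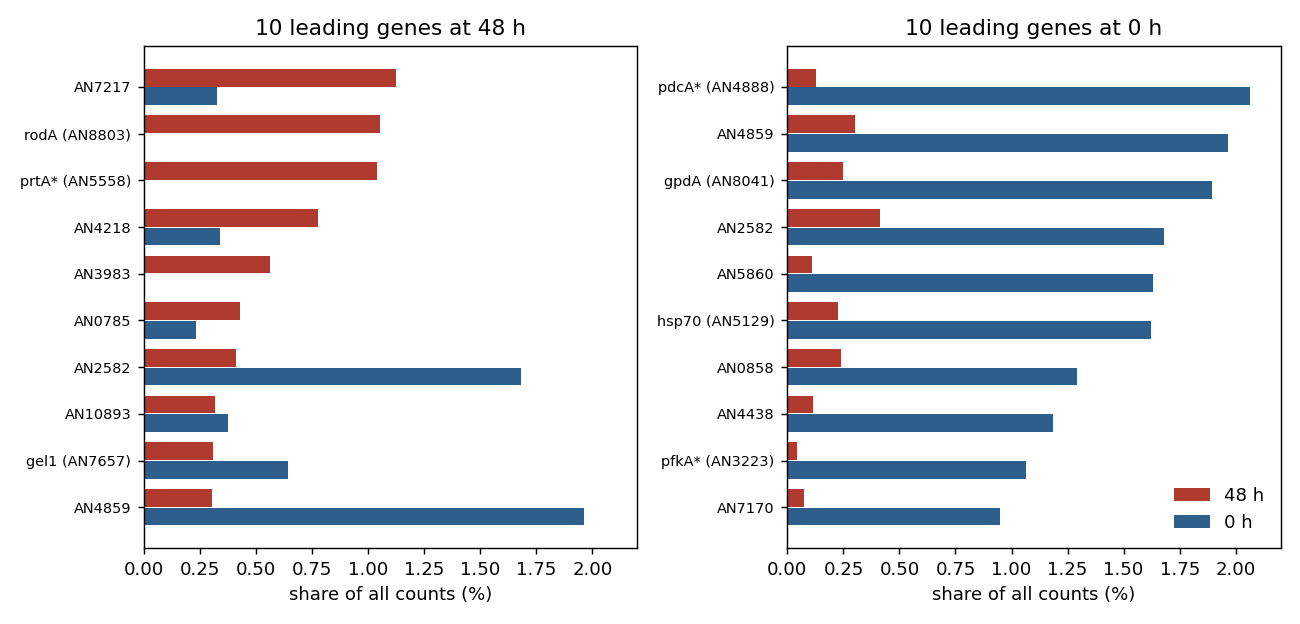
Share of all counts (%, horizontal axes) of the 10 most abundant genes at 48 h (left panel) and at 0 h (right panel), with the 48 h bar above the 0 h bar for each gene; names with an asterisk are list names for loci without a reference symbol. rodA holds 1.05% at 48 h and nothing at 0 h, and each of the 10 leaders at 0 h holds a smaller share at 48 h.

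The leaders of each end reached their place along different courses. rodA gave 0, 0.213, 16.7, 896, 1394, 3365 and 7561 CPM from 0 h to 48 h in order of time, so that each later library was higher. AN5558 gave 83.6, 373, 165, 409, 426, 1468 and 7439 CPM, with most of its gain after 24 h. AN3983 gave 19.1, 98.7, 377, 1418, 1297, 1389 and 4029 CPM, with a level stretch from 18 to 30 h. hsp70 had lost most of its level by 6 h, where it stood at 3525 CPM, against 35388 CPM at 0 h. In contrast AN4888 gave 44940.2, 16255, 10381, 10453, 7172, 4374 and 906 CPM and was lower at 48 h than at any earlier time.

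Across the table, 7639 genes had at least 10 CPM at either end. Of these, 951 genes were called higher at 48 h, which is 12.4% of those compared, and 1126 were called lower, 14.7%. Together these were 27.2%, while 3381 genes (44.3%) lay within 2-fold. The 951 higher genes held 14.2% of counts at 48 h and 0.325% at 0 h, and the 1126 lower genes held 17.4% at 48 h and 70.5% at 0 h. The genes under 4-fold held 67.5% at 48 h and 29.0% at 0 h. Differences of at least 64-fold were more frequent upward, with 108 genes higher and 33 lower, and those of at least 256-fold numbered 33 higher and 5 lower. Genes with a symbol made up 5.89% of the higher genes, 9.33% of the lower genes and 9.63% of all genes compared, so the higher genes are the less annotated. The calls just inside and outside the threshold lay at log2 differences of 2.001 and 1.998 upward, and -2.0001 and -1.995 downward, so the threshold cuts through a continuous range.

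The split between higher and lower calls depends on the scaling. With TMM factors 45.8% of calls were higher and the median log2 difference of the compared genes was 0.096. Scaled by totals alone, 90.8% of calls were higher and that median was 1.67, and with upper quartile factors 58.0% were higher. Each call below is therefore relative to the bulk of genes. Shares of counts use no TMM factor, but setting a share at 48 h against a share at 0 h amounts to scaling by totals. A share can therefore rise because leading genes fell, and shares are given beside the levels as a second scale.

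The largest upward differences were in spore wall hydrophobins and in genes without a name. rodA was at least 8045-fold higher at 48 h, set against 3 counts in the 0 h library. AN6401, entered as the hydrophobin dewC, had 14197 counts (1129 CPM) at 48 h and 0 counts at 0 h, at least 1201-fold higher. AN9220, without a symbol, had 12848 counts at 48 h against 1 count at 0 h, a ratio of 3260.4 with a counting interval of 585 to 128788. Also among the 10 largest were the hydrophobin dewA (AN8006), with 434 CPM at 48 h against no count at 0 h (at least 461-fold), and AN1837, entered as dewB, with 656 CPM at 48 h against 0.627 CPM at 0 h. The other 5 of these 10, AN7515, AN5421, AN9253, AN8384 and AN8375, have no symbol, and AN9253 and AN8384 are on the austinol list described below.

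Among genes with a symbol, ccpA (AN10109), a conidial wall protein in A. fumigatus, gave 588 CPM at 48 h against 1.57 CPM at 0 h, 375-fold higher (161 to 1156). brlA (AN0973) gave 347 CPM at 48 h against 0.940 CPM at 0 h, a ratio of 369 (126 to 1792) that rests on 3 counts at 0 h. tmpL (AN9129), which encodes a membrane protein linked to conidiation in A. fumigatus, had 117 CPM at 48 h against no count at 0 h, at least 124-fold higher. The symbol list went on with ivoA, a gene of conidiophore pigmentation (172-fold, 73.7 to 530.2), then ayg1, encD, fmaF and sidI, at 44.4 to 74.1 CPM at 48 h and under 1 CPM at 0 h. These 4 symbols are those of secondary metabolite, pigment and siderophore genes of A. fumigatus.

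The largest downward differences were smaller in size than the upward ones. AN2038 had 2.39 CPM at 48 h against 1270.0 CPM at 0 h, 533 times lower (372 to 790.3). AN7053 had 1.27 CPM at 48 h against 633 CPM at 0 h, 498 times lower (306 to 873). Neither has a symbol, and of the 10 largest decreases the zinc transporter gene zrfA (AN8337) alone has one. It gave 27.0 CPM at 48 h against 4577 CPM at 0 h, 169.8 times lower (152 to 189.7).

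After zrfA, the symbol list went on in order of size with pmcC, which encodes a calcium-transporting ATPase (86.7 times lower, 71.7 to 106), pmeA, a pectin methylesterase gene (81.3 times, 63.8 to 105), and nopA, which encodes a protein of the opsin family (71.9 times, 69.0 to 74.9). Next was agd3 (49.2 times, 47.5 to 50.9), which in A. fumigatus acts in making the adhesive wall polysaccharide galactosaminogalactan. fhpA (AN7169), the gene of a flavohaemoglobin that removes nitric oxide, gave 156 CPM at 48 h against 6789 CPM at 0 h. frdA (AN10296), whose symbol denotes a fumarate reductase, gave 219 CPM at 48 h against 8159 CPM at 0 h. They were 43.5 times (41.5 to 45.5) and 37.3 times (35.8 to 38.8) lower. gtb3, a gene of the same polysaccharide as agd3, hsp78 and cbpA followed, at 29.8 to 34.3 times lower.

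**Figure D3:**
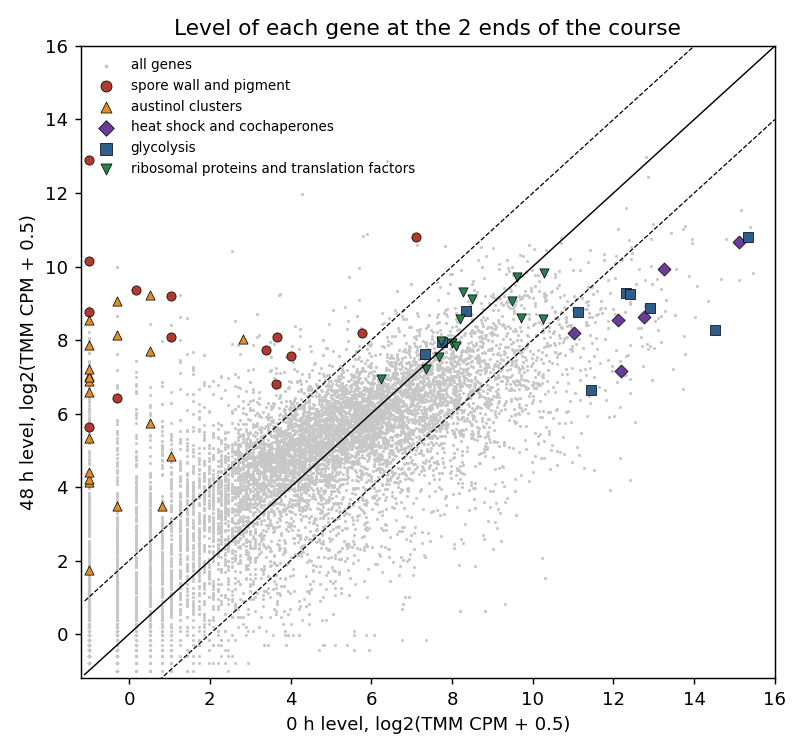
Level of each gene at 48 h (vertical axis) against 0 h (horizontal axis), both as log2 of TMM CPM plus 0.5; the solid line marks equal levels, the dashed lines 4-fold, and 5 gene lists are coloured. The 14 spore wall and pigment genes and 20 of the 21 austinol genes lie above the upper dashed line with at least 10 CPM at 48 h, while the 6 heat shock genes and 7 of 10 glycolysis genes lie below the lower one.

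Genes counted at one end alone were nearly all on the 48 h side. At least 10 counts at 48 h and none at 0 h were recorded for 330 genes, 3.23% of the 10232 genes with a count at either end. At least 10 counts at 0 h and none at 48 h were recorded for 1 gene, 0.00977%. A count of 0 leaves room for levels of 0.239 CPM at 48 h but of 0.940 CPM at 0 h, so absence from the 0 h library was the weaker statement. The 330 genes held 2.44% of the 48 h counts, and rodA alone held 1.05%. Most were low, with a median of 2.78 CPM, and 98 reached 10 CPM and 30 reached 100 CPM. After rodA, dewC, AN7515 and dewA, the highest were AN5421 (375 CPM), AN9253 (370.0 CPM), AN8375 (297 CPM), AN9177 (263 CPM), AN8928 (258 CPM) and AN9248 (234 CPM), none of them with a symbol. A symbol was present for 9 of the 330. When the 48 h library was thinned to the 0 h total, 295 genes met the same rule. Thinning evened the totals but not the TMM factors of 1.395 at 48 h and 0.459 at 0 h. On the TMM scale 1 count thus still stood for a lower level at 48 h, and the unequal floors remained.

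The 330 genes did not appear together. Their earliest library with 10 counts was 6 h for 42 genes, 12 h for 51, 18 h for 63, 24 h for 32, 30 h for 87 and 48 h for 55. The libraries differ in depth, which moves such a first time. AN7515 was a late case, with 474 CPM at 48 h against 16.4 CPM at 30 h, and AN6401 (dewC) an early one, with 112 CPM at 12 h.

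The gene counted at 0 h alone, AN10666, had 0 counts at 48 h and 16 counts at 0 h, a level of 5.01 CPM. With up to 3 counts allowed at 48 h the number rose to 17 genes, led by AN7402 with 3 counts at 48 h and 195 at 0 h, a ratio of 256 (86.4 to 1253). The reverse rule, up to 3 counts at 0 h and at least 10 at 48 h, gave 916 genes. No transcript prominent in the submerged mycelium thus lost every count: of 1126 genes called lower, 0 had no count at 48 h and 35 were under 1 CPM there, while of 951 genes called higher 98 had no count at 0 h and 235 were under 1 CPM there.

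The gene lists below were set by knowledge of the fungus and with earlier results of these data known. Members were named by locus or caught by a pattern on the reference symbol. Only 778 of 10639 genes carry a symbol, so lists made by symbol can miss members of a family. The counts of all lists stand against 12.4% higher and 14.7% lower among all genes compared. Among 7 regulators of conidiation 3 were called higher and 1 lower. brlA is given above. abaA, which acts in phialides, gave 72.0 CPM at 48 h against 15.4 CPM at 0 h, 4.69-fold (3.52 to 6.39), and wetA, which acts in spore maturation, gave 44.3 CPM at 48 h against 9.09 CPM at 0 h, 4.87-fold (3.36 to 7.35). The counting intervals of abaA and wetA reach below 4-fold. medA, a modifier of conidiophore development, was lower, with 200.3 CPM at 48 h against 821 CPM at 0 h. It was not called lower when scaled by totals or by upper quartile factors, and by totals 5 of the 7 were called higher, vosA and stuA among them. The velvet regulator gene vosA (54.8 CPM at 48 h, 18.5 CPM at 0 h), velB (30.8 and 67.0 CPM at 48 h and 0 h) and stuA (1414 and 1054 CPM at 48 h and 0 h) lay under 4-fold. So did the 6 upstream fluffy genes fluG and flbA to flbE, whose median log2 difference was -0.43.

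All 14 genes of spore wall and pigment were called higher, with a median log2 difference of 6.68, or 6.22 with genes absent at 0 h set to their bound. Together they held 1.90% of counts at 48 h and 0.0113% at 0 h. Among the hydrophobins, besides rodA, dewA, dewB and dewC, AN7539 (entered as dewE) gave 85.7 CPM at 48 h against 0.313 CPM at 0 h, and AN0940 (entered as dewD) gave 112 CPM at 48 h against 11.9 CPM at 0 h. Among the pigment genes, ayg1 had no count and ivoA 5 counts at 0 h, while AN8209, yA and ivoB had 39 to 174 counts there. AN8209, which carries the symbol pksP and was entered as wA, the polyketide synthase of spore pigment, gave 189.6 CPM at 48 h against 15.7 CPM at 0 h, 12.1-fold (9.15 to 16.4). yA (AN6635), the laccase that turns the yellow precursor green, gave 292 CPM at 48 h against 54.5 CPM at 0 h, 5.36-fold (4.60 to 6.27). ivoB (AN0231), a phenol oxidase gene of conidiophore pigment, gave 269 CPM at 48 h against 12.2 CPM at 0 h, 22.0-fold (16.1 to 31.0). Under the 4 other scalings the count was 14 of 14 as well.

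Glycolysis, which breaks sugar down to pyruvate, had 7 of 10 listed genes lower and 0 higher, a median log2 difference of -3.09. The list held 0.729% of counts at 48 h and 4.06% at 0 h. Besides gpdA and AN3223 (entered as pfkA), pgkA (AN1246), the phosphoglycerate kinase, gave 472 CPM at 48 h against 7627 CPM at 0 h, 16.2 times lower (15.7 to 16.6). AN8689, entered as the glucokinase glkA, gave 99.0 CPM at 48 h against 2781 CPM at 0 h, 28.1 times lower (26.5 to 29.8). The 3 genes under 4-fold were entered as tpiA, hxkA and swoM, of the hexose and triose phosphate steps, at 197, 248 and 440.4 CPM at 48 h against 161, 215 and 327 CPM at 0 h. By totals alone 4 of the 10 were lower and 1 higher, and the median was -1.49.

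Genes of ethanol and C2 metabolism divided. AN4888 (entered as pdcA) and AN2286 (entered as the alcohol dehydrogenase alcC) were 49.6 times (48.7 to 50.6) and 29.0 times (28.1 to 29.8) lower at 48 h. AN8979, entered as alcA, the alcohol dehydrogenase by which the fungus uses ethanol as food, went the other way, with 153 CPM at 48 h against no count at 0 h, at least 163-fold higher. AN8978, entered as its activator alcR, gave 30.8 CPM at 48 h against 0.627 CPM at 0 h, and AN0554, entered as the aldehyde dehydrogenase aldA, gave 847 CPM at 48 h against 42.9 CPM at 0 h, 19.7-fold higher (16.7 to 23.5). The loci entered as acuD and acuE of the glyoxylate cycle and acuF (AN1918), the phosphoenolpyruvate carboxykinase, were lower, by 30.4 times (28.0 to 33.0), 7.15 times (6.61 to 7.73) and 13.5 times (12.9 to 14.0). In all 3 of 10 were higher and 5 lower, or 3 higher and 4 lower by totals, where acuE was not called.

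Nitrate use divided as well, within 1 gene cluster. The enzyme genes niiA (nitrite reductase, AN1007) and niaD (nitrate reductase, AN1006) gave 399 and 28.5 CPM at 48 h against 9337 and 305 CPM at 0 h. Their neighbour crnA (AN1008), a nitrate transporter, gave 21.5 CPM at 48 h against 1.88 CPM at 0 h, and AN0399, entered as the transporter nrtB, 102 CPM at 48 h against 6.27 CPM at 0 h. Thus both reductases were lower, by 23.4 times (22.7 to 24.1) and 10.7 times (9.44 to 12.1), and both transporters higher, by 11.5-fold (5.20 to 31.5) and 16.3-fold (10.5 to 26.8). The regulators nirA and areA lay under 4-fold. Scaled by totals, niiA remained lower and niaD did not, and nirA was called higher.

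The heat shock list, chaperones that fold proteins, held 6 genes caught by their symbols. Of these, 6 of 6 were called lower and 0 higher, with a median log2 difference of -3.84. The list held 0.531% of counts at 48 h and 2.90% at 0 h. hsp90 (AN8269) gave 983 CPM at 48 h against 9726 CPM at 0 h, 9.90 times lower (9.69 to 10.1), and the mitochondrial hsp60 (AN6089) 398 CPM at 48 h against 6878 CPM at 0 h, 17.3 times lower (16.8 to 17.8). Scaled by totals, 3 of 6 were called lower, with a median of -2.24.

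Genes of the growing hypha and its wall were mixed, and their counts stand beside 12.4% higher and 14.7% lower among all genes compared. Of 9 synthases of wall polysaccharides 3 were lower and 1 higher. The lower ones were the adjacent motor-domain chitin synthases csmB (AN6317) and AN6318 (symbol chsE, entered as csmA), with 418 and 378 CPM at 48 h against 4173 and 4370.3 CPM at 0 h, and AN3307 (symbol ags1, entered as the alpha-glucan synthase agsB), with 366 CPM at 48 h against 4537 CPM at 0 h. The second alpha-glucan synthase, AN5885 (symbol ags2, entered as agsA), went up by 18.7-fold (12.7 to 29.0), with 147 CPM at 48 h against 7.83 CPM at 0 h. agd3 and gtb3 gave 277 and 216 CPM at 48 h against 13650.1 and 7429 CPM at 0 h. In the cytoskeleton and septin list 2 of 10 were lower, actin (AN6542, symbol act1), 8.08 times (7.88 to 8.28), and the septin aspE, 5.97 times (5.36 to 6.66). The tubulin loci and the other 4 septins were under 4-fold. This list had a median log2 difference of -0.74 and held 0.516% of counts at 48 h and 0.489% at 0 h. Its number of lower calls was thus near the share among all genes. Scaled by totals, 1 of the 9 synthases was called lower, AN3307, and 0 of the 10 cytoskeleton and septin genes.

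Wall-degrading and protein-degrading genes of autolysis, the self-digestion of old hyphae, had 3 of 6 higher and 0 lower. AN5558, described above, was 88.9-fold higher (78.9 to 101). AN1414, entered as its activator xprG, gave 219.7 CPM at 48 h against 29.4 CPM at 0 h, 7.46-fold (6.07 to 9.26), and AN7962, symbol mep20 and entered as the metalloprotease pepJ, gave 23.5 CPM at 48 h against 0.313 CPM at 0 h. Under 4-fold lay AN4871, entered as the chitinase chiB, with 38.5 CPM at 48 h against 82.1 CPM at 0 h, and AN0472, entered as engA, with 396 CPM at 48 h against 861 CPM at 0 h.

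Among secondary metabolite clusters, 20 of the 20 austinol genes with at least 10 CPM were higher, of 21 on the list. Austinol is a meroterpenoid that the fungus makes from a polyketide and a terpene. Together the 21 listed genes held 41557 counts (0.461%) at 48 h and 42 counts (0.000604%) at 0 h. They come from separate ranges on different contigs, AN8376 to AN8384 and AN9246 to AN9259. The median log2 difference was 7.38, or 6.83 with genes absent at 0 h at their bound. AN8383 gave 595 CPM at 48 h against 0.940 CPM at 0 h, a ratio of 633 (216 to 3069), and AN8384 gave 538 CPM at 48 h against 0.313 CPM at 0 h, a ratio of 1717 (308 to 67827). The member under the minimum, AN9254, had 36 counts at 48 h and none at 0 h.

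The sterigmatocystin cluster, which makes a toxin related to aflatoxin, was low at both ends, with 10 of 21 genes at 10 CPM or more. Of these 10, 3 were higher (AN7812, AN7820 and AN7821) and 1 lower (AN7805), at 10.6 to 19.0 CPM and 17.1 CPM at 48 h. Scaled by totals, 14 of the 21 reached 10 CPM, of which 10 were called higher and 0 lower, so the count for this list depends on the scaling and AN7805 was no longer called. Of the 3 penicillin loci 1, AN2623 (entered as aatA), was higher, with 27.3 CPM at 48 h against 3.45 CPM at 0 h.

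The lists of ribosomal and translation genes, of histones and of the cell cycle stayed near the bulk of genes, which the TMM scale sets as its zero. Of 14 ribosomal proteins and translation factors, 5 histones and 9 genes of mitosis and the cell cycle, 0 were called in either direction, with median log2 differences of -0.11, -0.63 and 0.16. On shares of counts the ribosomal and translation list held 0.809% at 48 h and 0.319% at 0 h, a difference that the TMM scale removes. By totals 3 of these 14 and 3 of the 9 cell cycle genes were called higher. The ribosomal, histone and cell cycle medians were then 1.49, 0.97 and 1.73, beside 1.67 for all genes compared. Of 19 genes on the ergosterol list with at least 10 CPM 3 were lower, erg1, erg12 and erg24B, by 6.95, 5.05 and 4.29 times, while by totals 0 were lower and 7 higher. The 2 called higher on the TMM scale, hmgA and hmgX, were caught by their symbols and belong to the breakdown of tyrosine, not to ergosterol. Both are counted in the 19 compared and in the 7 higher by totals.

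Of 13 ion and metal transport genes 3 were lower, zrfA, pmcC and pmcB, and 1 higher, the siderophore transporter mirB, with 343 CPM at 48 h against 30.7 CPM at 0 h. By totals 2 of 14 were lower and 5 higher. In the list of trehalose and catalase genes 2 of 7 were lower, AN9339 (symbol cat1, entered as catB) by 8.80 times and AN5523 (entered as tpsA) by 5.07 times. In the respiratory list 1 of 5 was lower, cox5b, by 7.37 times. By totals none of these 3 was called lower. The galactosaminogalactan list had agd3 and gtb3, both on contig 49, lower. Its member ugd2 (AN9172) was higher, at 55.0 CPM at 48 h against 1.25 CPM at 0 h. That gene entered by its symbol alone and lies on contig 167, and its part in this synthesis was not tested.

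**Figure D4:**
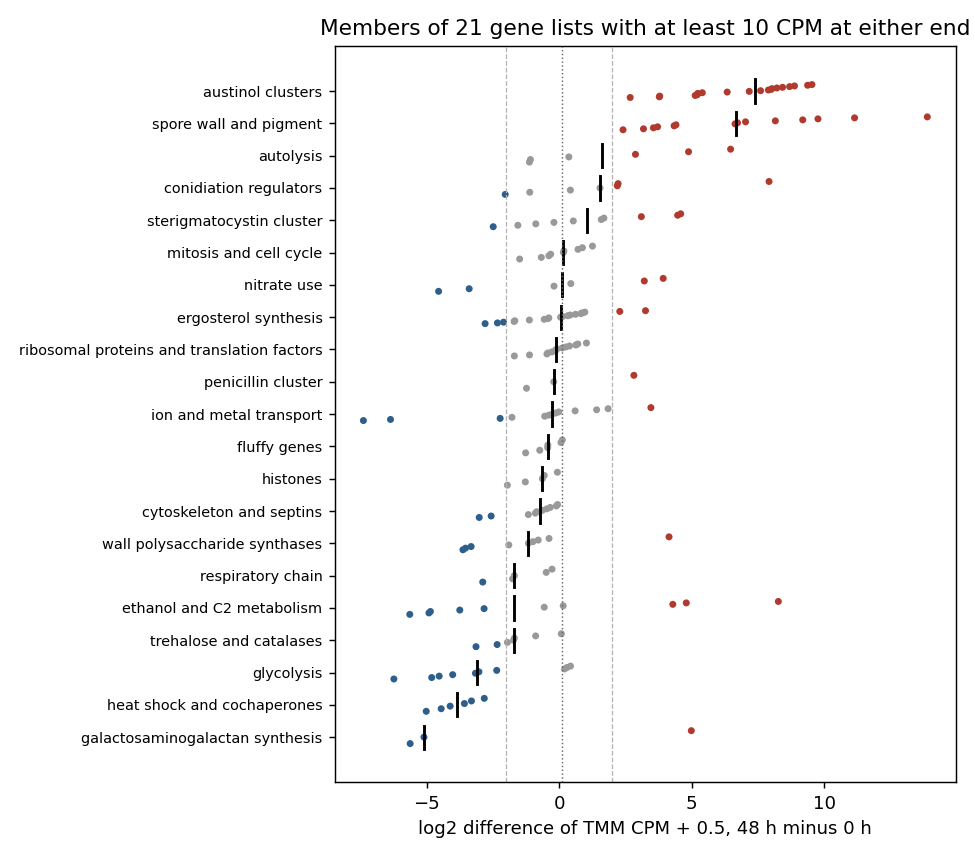
Log2 difference of TMM CPM plus 0.5, 48 h minus 0 h (horizontal axis), for each member with at least 10 CPM at either end of 21 gene lists (rows); red dots are at least 4-fold higher, blue dots at least 4-fold lower, grey dots between, and black bars are list medians. The dotted line is the median of all genes compared, 0.096, and the austinol and spore wall lists lie farthest above it.

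Runs of at least 4 neighbouring genes called in the same direction, among genes with at least 10 CPM at either end, numbered 18 higher, with 103 genes or 10.8% of the higher calls, and 22 lower, with 112 genes or 9.95% of the lower calls. The count moves with the threshold and the scaling, and by totals it was 218 higher and 4 lower. The longest higher run, AN9246 to AN9259 on contig 169 (29233 to 63121), had 15 genes and overlaps the austinol list. Its summed level was 2161 CPM at 48 h. The next, AN9171 to AN9178 on contig 167 (6551 to 32118), had 10 genes and begins with ayg1, ugd2 and AN9173. In this run 7 of the 10 genes had no count at 0 h, and AN9178 gave 577 CPM at 48 h against 0.940 CPM at 0 h. The third, AN8432 to AN11079 on contig 150 (160832 to 184791), had 8 genes, led by AN8433 with 173 CPM at 48 h against 0.627 CPM at 0 h.

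Among lower runs the longest were AN7873 to AN7884 on contig 132 and AN2030 to AN2038 on contig 31, with 9 genes each, and AN4110 to AN4120 on contig 65, with 7 genes. None of their genes has a symbol. The contig 31 run was the deepest, with a median log2 difference of -6.69 and 3 of the 10 largest decreases, AN2034, AN2035 and AN2038. AN2037 in it gave 60.7 CPM at 48 h against 4123 CPM at 0 h, 68.0 times lower (63.2 to 73.2). In the contig 65 run AN4119 gave 14.7 CPM at 48 h against 3845 CPM at 0 h, 261 times lower (226 to 304).

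**Figure D5:**
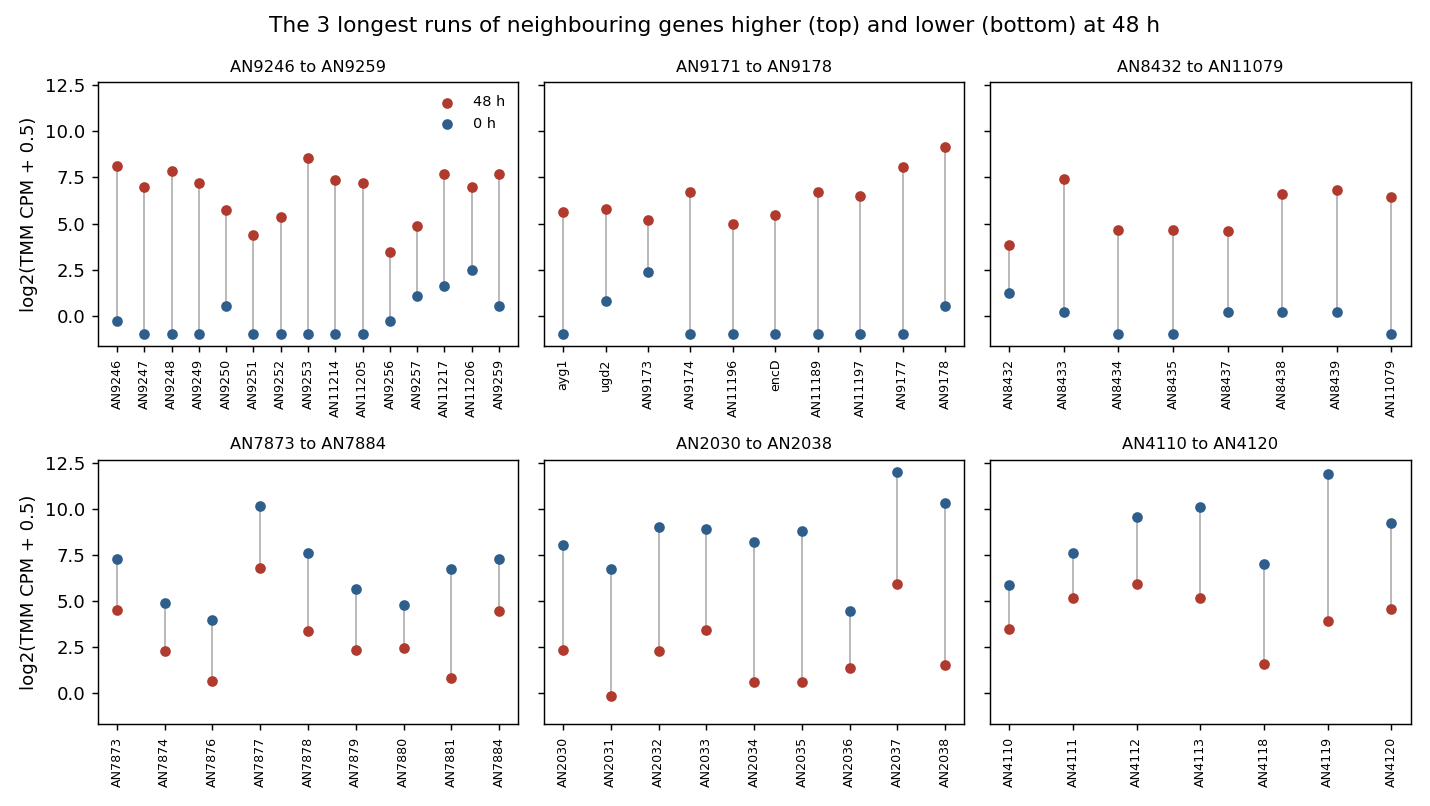
Levels as log2 of TMM CPM plus 0.5 (vertical axes) of the neighbouring genes (horizontal axes, in order of position) in the 3 longest runs higher at 48 h (top) and the 3 longest lower at 48 h (bottom), with red points for 48 h and blue points for 0 h. Many genes in the higher runs sit at the 0 count level at 0 h, while the lower runs keep counts at 48 h.

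The same comparison in 2 libraries that the ends did not use, 30 h and 6 h, held fewer calls, 389 higher (5.22% of those compared) and 140 lower (1.88%). Of the 951 genes higher at 48 h 246 were also higher at 30 h over 6 h, which is 25.9% of the calls at the ends and 63.2% of the inner ones. Of the 1126 lower genes 92 were also lower, 8.17% of the calls at the ends and 65.7% of the inner ones. Calls in opposite directions numbered 11. rodA and brlA were higher in both pairs and gpdA lower in both, while hsp90 and hsp78, lower at 48 h over 0 h, had inner log2 differences of 0.05 and 0.47 and were not called there. The contig 31 run had no gene lower in the inner pair, and its AN2038 had already dropped to 14.3 CPM at 6 h, against 1270.0 CPM at 0 h.

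Split into steps of 0 to 6 h, 6 to 30 h and 30 to 48 h, the step that was largest differed between the directions. Of the lower genes 62.3% had their largest fall between 0 and 6 h, 19.3% between 6 and 30 h and 18.4% between 30 and 48 h. Of the higher genes 40.8% had their largest gain between 0 and 6 h, 46.6% between 6 and 30 h and 12.6% between 30 and 48 h. The steps last 6, 24 and 18 h, so their sizes are not rates. The ends share a library with the outer steps, so these shares describe the calls and do not test them.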

How the data were processed

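Per the labels' protocols, cDNA libraries were prepared from RNA with Illumina's mRNA kit, and by the series' own account the reads were lost. Per the file headers, the authors deposited 3 values for each gene and time: its count, its signal per nucleotide and its RPKM. The counts deposited by the authors are whole numbers that were not normalized, and they were used here. The signal deposited by the authors is the count divided by gene length, which gave the lengths for values per length. The RPKM deposited by the authors was not used for results. The submitters' processing notes name CASAVA. No aligner, genome build, annotation or strand setting is stated in the sources used here, and overlapping, antisense and near-identical genes cannot be separated, and contig positions are those of the table. Lengths of 17 genes were far shorter than their span on the contig, which affects their values per length.

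TMM factors came from edgeR 4.0.16 over all 7 libraries, on genes with at least 1 CPM in at least 1 library and 15 counts in all. The factors were 1.395 at 48 h and 0.459 at 0 h, and against totals they move every 48 h minus 0 h difference by 1.60 log2 units, or 3.04-fold. Size factors of DESeq2 1.42.0, upper quartile factors, TMM of the 2 libraries alone, totals, other pseudocounts, minimum levels and folds were alternatives. Folds compare TMM CPM. Their exact intervals come from the binomial split of both counts, and a fold against 0 counts is a bound set against 3 counts in that library. The call rule and intervals were tested on simulated data. Symbols came from the ASM1142v1 reference table, used for names only, which held 10455 of 10639 identifiers, 778 with a symbol; "entered as" marks a name from the gene lists written for this work where the table has none or another. Named genes were the 10 leading genes of each end, the 10 largest gains and losses of share, the 10 largest differences each way with and without regard to symbol, the 10 highest genes counted at one end, list members and members of the 3 longest runs each way. Members and lists were chosen with earlier results of these data known. The values of 1 list member are not reported here. No gene sequence is printed. Other steps used SciPy 1.17.1, pandas 2.3.3 and matplotlib 3.10.9 under Python 3.11.15.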

Additional observations from a re-analysis of the deposited data

How the results depend on the processing

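No paired analysis was possible because each time has 1 library and no replicate number to share, and for the same reason no replicate could be left out. Against 951 genes higher at 48 h there were 3373 by totals alone, 576 with a minimum of 30 CPM, 2187 at 2-fold, 466 at 8-fold and 611 with the whole counting interval beyond 4-fold. Against 1126 lower there were 343 by totals, 2071 at 2-fold and 559 at 8-fold. The other alternatives gave 784 to 1262 higher and 914 to 1239 lower, among them TMM without a gene filter, which was chosen after seeing the data. No gene called in the main comparison was called in the opposite direction under any of these. That outcome was fixed in advance, since a call needs 4-fold and the widest change of scaling, totals, moves differences by 3.04-fold. Neither that shift nor a pseudocount could turn a direction, so of 303 named genes called 303 kept theirs. By totals 222 of them kept the call, against 295 to 303 under the other scalings and pseudocounts.

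Genes counted at 48 h only numbered 330, against 838 at 1 count, 574 at 3 counts, 185 at 30 counts and 916 with up to 3 counts allowed at 0 h. Those counted at 0 h only numbered 1, against 47, 14, 0 and 17 under the same rules and 4 with the 48 h library thinned. The shares of the leading 1, 10 and 100 genes at 48 h were 2.21, 11.6 and 29.7% per length and 1.07, 5.55 and 20.0% without the leading gene. At 0 h they were 2.09, 13.4 and 46.8% per length and 2.01, 14.4 and 44.4% without it. Runs higher and lower numbered 43 and 62 from 3 genes on, 9 and 11 from 5 genes on, 64 and 74 at 2-fold, and 218 and 4 by totals. The cause of these moves was not tested, apart from the threshold or scaling changed. The 0 h side was limited most, where 10 CPM rested on 31.9 counts, against 126 counts at 48 h. That gap holds both the smaller total and the smaller TMM factor at 0 h, and the factors differ more than the totals.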

Other observations

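Shares gained and lost name further genes that differences in level pass over. After rodA, AN5558, AN7217, AN3983 and AN4218, the largest gains in share of counts were in AN7594, with 0.266% at 48 h and 0.00272% at 0 h, in AN1460, with 0.255% at 48 h and 0.00252% at 0 h, and in CweA (AN1827), with 0.251% at 48 h and 0.00628% at 0 h. AN7710 and AN8781 followed, with 0.213% and 0.209% at 48 h and 0.00637% and 0.0104% at 0 h. AN4218 gained share, with 0.775% at 48 h and 0.340% at 0 h, while its TMM level was lower at 48 h, 5553 CPM against 7403 CPM at 0 h, so the direction of this gene depends on the scale. The 10 largest losses of share were the 10 leading genes at 0 h.

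Among the shorter runs, AN1895 to AN1899 on contig 29 had 5 genes called higher, hmgA and hmgX among them. The run AN8978 to AN8981 on contig 165 had 4 genes called higher and holds the loci entered as alcR and alcA, with a summed level of 212 CPM at 48 h. The run AN2952 to AN2955 on contig 49 had 4 genes called lower and holds agd3 and gtb3.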
